A study of Homo sapiens with 21 samples.

Results

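Transcript levels of 47 genes of DNA replication and mitosis were followed by RNA-seq through an EWS/FLI knockdown and rescue series in A673 cells. The genes were taken from a list of names, which was chosen with earlier results of these data known. They comprised 24 S-phase genes, from MCM2 to RRM2, and 23 mitosis genes, from CCNB1 to TPX2, of 57820 genes in the count table. All 47 had a name in the annotation, and all 47 passed the filter on low counts, with between 333 and 13525 counts in their lowest library.

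A673 is an established Ewing sarcoma cell line that carries the EWS/FLI fusion. This fusion joins the EWS low complexity domain to the DNA-binding domain of FLI1. In the study's experience no other line proliferated reliably after depletion and rescue, and it calls A673 uniquely tolerant to loss of the fusion. The 21 libraries fell into 7 groups of 3 replicates, numbered 1 to 3. Cells of every group received an shRNA on day 1 and a retroviral cDNA or vector on day 5, each selected for with its drug (puromycin at 2 µg/ml, hygromycin at 400 µg/ml), and were grown until day 16. All groups came from this 1 line, and the study describes the replicates as 3 rounds of depletion and rescue, so p-values measure the spread between rounds of 1 line. In iLuc the shRNA was directed against luciferase, an empty vector was added and the endogenous fusion (endo-EF) was kept. In iEF the shRNA was directed against the fusion transcript and was followed by an empty vector. The other 5 groups carried that same shRNA against the fusion and a cDNA. WT-EF encoded wildtype EWS/FLI. Δ22 lacked the EWS domain. DAF was a full-length fusion in which tyrosines of the N-terminal EWS repeats were changed to alanine. The mut9 construct had most of the EWS domain deleted, and DAF-mut9 carried tyrosine changes within that shortened form.

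Before a cell can copy its DNA, ORC, CDC6 and CDT1 load the MCM2 to MCM7 helicase at origins in G1. CDC45, the GINS complex and MCM10 then turn the loaded helicase into an active fork, on which DNA polymerases, the PCNA clamp and its loader RFC work. These genes are classically transcribed by E2F factors at the G1 to S transition. Genes for mitotic cyclins, kinases, kinetochore proteins and spindle motors are transcribed later, in G2 and M. They are under the DREAM, B-MYB and FOXM1 complexes, which act through CHR elements. Promoters of these genes often hold CCAAT elements as well. In cells collected together, fewer cells in S phase or mitosis and less of these transcripts per cell cannot be told apart.

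The targeted gene was examined first. FLI1, whose counts also include reads from the introduced cDNAs, lay at 61.3, 60.6 and 89 CPM (counts scaled to a common library size after TMM adjustment) in iLuc and between 20.02 and 21.1 CPM in the 3 libraries of iEF. Every iLuc library lay above every iEF library, with iLuc 3.37-fold higher (adjusted p = 1.33e-09, edgeR). FLI1 was not equal among the rescue groups, at 24.5 ± 2.39 CPM (mean ± SD, n = 3) in WT-EF, 30.7 ± 2.52 in mut9, 37 ± 2.43 in DAF, 36.3 ± 1.49 in DAF-mut9 and 49.5 ± 11 in Δ22, so that the group with the lowest FLI1 level among them was WT-EF. Relative to iEF, FLI1 was not called in WT-EF (log2 fold change 0.24, adjusted p = 0.196, edgeR). It was called higher in mut9 (0.57), DAF (0.84), DAF-mut9 (0.81) and Δ22 (1.25). Library totals ran from 32897083 to 46210348 counts. Markers of other cell types were at or near the floor, with at most 2 counts of CD3E, 5 of KRT5 and 8 of ALB in any library, up to 23 of EPCAM, 34 of CDH5, 38 of PTPRC and 111 of DES. Of 8 Ewing sarcoma markers, 7 were present in every library, and CD99, which lies in the pseudoautosomal region shared by X and Y, had at most 8 counts and was at 0 in 3 libraries.

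Some libraries stood apart for these genes. Replicate 3 of iLuc was the highest of its group for 24 of 24 S-phase genes, with a median of 0.89 on the log2 scale above the mean of the other 2, whereas its mitosis genes lay at a median of -0.032 from theirs. Replicate 3 of iEF was the lowest of its group for 23 of 23 mitosis genes, by a median log2 difference of -0.73, and replicate 1 of iEF was the highest for 24 of 24 S-phase genes. Replicate 2 of DAF was the lowest for all 24 S-phase and all 23 mitosis genes, and replicate 3 of Δ22 was the lowest for 22 and 23 of them. The WT-EF, mut9 and DAF-mut9 libraries were close together, with a median coefficient of variation over the S-phase genes of 5.94% in WT-EF against 38.6% in iLuc and 19.3% in iEF. Counts of calls are therefore given for several comparisons also without iLuc replicate 3, iEF replicate 3, DAF replicate 2 or Δ22 replicate 3. The ranges of counts over all omissions are in the last section. Group means, the order of groups and counts of groups that do not overlap are given with all libraries alone. Shares of all genes called are given for the fit of all 21 libraries alone, so counts with libraries left out have no such share beside them.

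Promoter sequence was read for members in the RefSeq promoter table of GRCh38.p14, which held 22 of 24 S-phase and 19 of 23 mitosis genes. In the 250 bases before the transcription start, the E2F letters TTTCCCGC, TTTGGCGC, TTTCGCGC or TTTGCCGC, on either strand and with overlapping matches counted once per promoter, were found in 9 of 22 S-phase promoters (40.9%) and in 2 of 19 mitosis promoters (10.5%), beside 2.79% of all 27305 promoters. The CHR letters TTTGAA or TTCGAA, also on either strand, were found in 9.09% of the S-phase, 47.4% of the mitosis and 14.6% of all promoters. The letters CCAAT were in 63.6%, 84.2% and 33% of them. A further E2F form, TTTGGCGG, was added after the windows had been read and occurred in 3 S-phase promoters (13.6%), in 0 of 19 mitosis promoters and in 0.568% of all. The letters CCGGAAGT, an ETS site of the kind that FLI1 reads, were in 13.6%, 5.26% and 3.64%. A match describes the letters alone, and a promoter without one may hold other forms.

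To show both classes, the 150 bases that end just before the start are given for 4 S-phase and 4 mitosis genes, 5′ to 3′ on the strand of the gene. GINS2, RFC3 and POLA1 were among the S-phase genes that rose with the fusion, and CDC6 did not. MAD2L1, PLK1 and CENPA were among the mitosis genes that rose, and KIF23 did not. Capitals mark E2F letters (the added form included), CHR letters and CCAAT letters on either strand.
GINS2 (chr16:85688955-85689104, minus strand): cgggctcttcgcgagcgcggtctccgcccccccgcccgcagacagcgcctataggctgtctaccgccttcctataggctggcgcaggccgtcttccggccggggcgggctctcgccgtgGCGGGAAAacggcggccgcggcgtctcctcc
RFC3 (chr13:33817999-33818148, plus strand): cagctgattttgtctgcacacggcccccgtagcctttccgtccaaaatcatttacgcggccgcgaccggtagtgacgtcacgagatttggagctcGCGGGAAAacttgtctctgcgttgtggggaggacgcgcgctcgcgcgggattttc
POLA1 (chrX:24693768-24693917, plus strand): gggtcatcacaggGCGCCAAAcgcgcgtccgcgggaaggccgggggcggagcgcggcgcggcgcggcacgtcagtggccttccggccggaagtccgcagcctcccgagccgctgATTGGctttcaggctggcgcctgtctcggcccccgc
CDC6 (chr17:40287729-40287878, plus strand): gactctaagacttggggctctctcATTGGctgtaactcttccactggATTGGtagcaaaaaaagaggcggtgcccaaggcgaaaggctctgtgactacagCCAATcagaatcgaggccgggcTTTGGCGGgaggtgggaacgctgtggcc
MAD2L1 (chr4:120066849-120066998, minus strand): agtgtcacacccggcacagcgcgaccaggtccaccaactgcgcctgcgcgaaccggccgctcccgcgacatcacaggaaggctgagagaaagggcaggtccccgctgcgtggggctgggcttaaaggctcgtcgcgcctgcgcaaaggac
PLK1 (chr16:23678739-23678888, plus strand): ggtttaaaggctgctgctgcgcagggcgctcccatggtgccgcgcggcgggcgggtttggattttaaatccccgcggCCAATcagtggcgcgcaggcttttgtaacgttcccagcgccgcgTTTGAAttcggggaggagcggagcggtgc
CENPA (chr2:26785906-26786055, plus strand): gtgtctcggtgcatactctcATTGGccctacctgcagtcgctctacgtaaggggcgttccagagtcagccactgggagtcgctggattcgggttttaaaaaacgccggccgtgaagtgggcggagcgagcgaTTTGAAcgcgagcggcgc
KIF23 (chr15:69414199-69414348, plus strand): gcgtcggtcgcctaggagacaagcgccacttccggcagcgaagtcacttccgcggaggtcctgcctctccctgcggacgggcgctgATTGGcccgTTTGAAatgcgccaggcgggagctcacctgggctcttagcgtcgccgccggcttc
For this comparison the added form TTTGGCGG was not counted as E2F letters, so CDC6 and CDC45, which hold that form alone, are among the genes without. S-phase genes with E2F letters had a median log2 fold change of 0.64 in iLuc versus iEF (9 genes, 8 called) and those without 0.45 (13 genes, 6 called). In WT-EF versus iEF the medians were 0.54 and 0.48. Mitosis genes with CHR letters had medians of 0.55 and 0.47 in these comparisons, against 0.47 and 0.33 without. KIF23 holds CHR letters and was called in 0 of the comparisons shown, and MAD2L1 holds neither CHR nor CCAAT letters in the printed stretch and was called in several. These values describe few genes, and the difference between genes with and without the letters was not tested.

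The mean level of each class was first compared across libraries, as the mean log2 CPM of its members relative to all 21 libraries. For the S-phase genes WT-EF was highest, at 0.37 ± 0.024 (mean ± SD, n = 3), followed by iLuc at 0.28 ± 0.54, mut9 at 0.06 ± 0.069, DAF-mut9 at -0.12 ± 0.058, Δ22 at -0.14 ± 0.19, iEF at -0.17 ± 0.25 and DAF at -0.27 ± 0.19. The libraries of WT-EF, mut9 and DAF-mut9 did not overlap one another, whereas those of DAF-mut9, Δ22, iEF and DAF did. The iLuc libraries overlapped those of every other group except DAF, and ran from -0.088 in replicate 2 to 0.89 in replicate 3. For the mitosis genes the order was iLuc at 0.31 ± 0.15, WT-EF at 0.19 ± 0.086, DAF-mut9 at 0.06 ± 0.10, mut9 at -0.026 ± 0.038, Δ22 at -0.10 ± 0.25, iEF at -0.19 ± 0.43 and DAF at -0.24 ± 0.35, and neighbours in this order overlapped throughout. By gene, DAF was the lowest of the 7 groups for 19 of 24 S-phase and 16 of 23 mitosis genes, and iEF for the other 5 and 7. This rank includes the low DAF replicate 2, at -0.48 and -0.63 for the 2 classes. DAF replicates 1 and 3 lay at -0.18 and -0.15 for the S-phase genes and at 0.052 and -0.14 for the mitosis genes. Those values were within the range of the iEF libraries, and the rank was not computed without replicate 2. The highest group was WT-EF for 12, iLuc for 11 and DAF-mut9 for 1 of the S-phase genes, and iLuc for 14, DAF-mut9 for 5 and WT-EF for 4 of the mitosis genes.

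**Figure D1:**
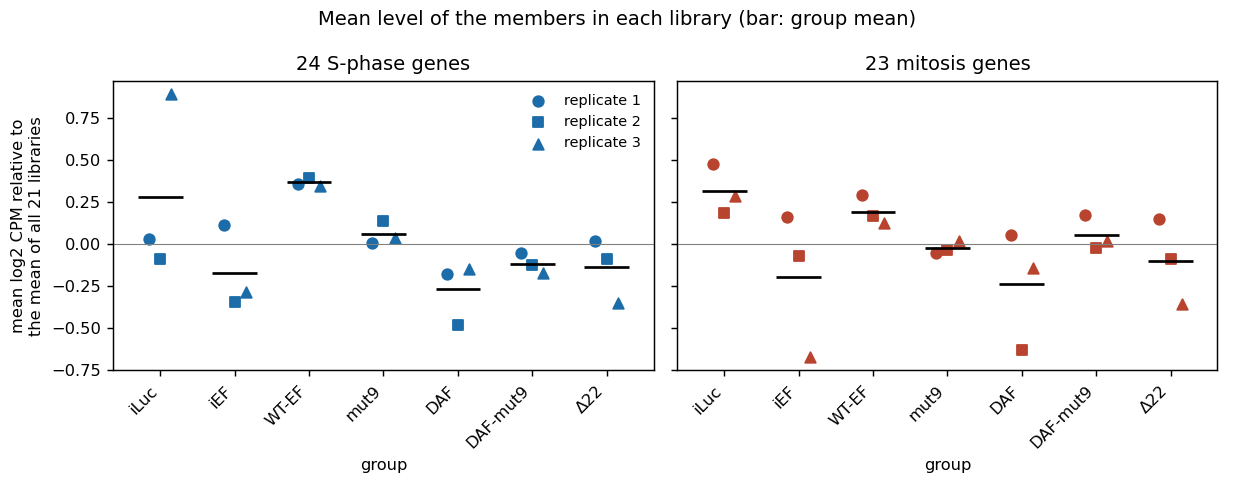
Mean log2 CPM of the 24 S-phase genes (left) and the 23 mitosis genes (right) in each library, relative to the mean of all 21 libraries, by group, with symbols for the replicate and a bar for the group mean. The S-phase level of iLuc replicate 3 (0.89) lies far above the other iLuc libraries, and the mitosis level of iEF replicate 3 (-0.67) and DAF replicate 2 (-0.63) far below theirs.

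Levels between genes were compared per kilobase of annotated exon. CCNB1, the main mitotic cyclin, was the most abundant member at a mean over all libraries of 164 CPM per kb, followed by PCNA, the sliding clamp, at 139 and TPX2, a spindle assembly factor, at 99.8. The lowest were the GINS subunit GINS3 at 4.72, the CDK1 phosphatase CDC25C at 5.44 and the catalytic subunit of DNA polymerase alpha, POLA1, at 6.3 CPM per kb. Lengths join the exons of all annotated transcripts, so this order depends on them. For POLA1 the length was 15547 bases, and its mean before division was 98 CPM. Exons of 15 of the 47 members overlapped those of another gene, for 4 of them over more than 10% of their length. Since the strand setting of the counting is not given in the sources used here, values of TYMS, the thymidylate synthase gene (1160 of 2421 exonic bases shared with ENOSF1 and TYMSOS), PLK1 (611 of 4760), BUB1B (457 of 4463) and NUSAP1 (195 and 352 of 3608, on the same and the opposite strand) may include reads of neighbours. Of the 47 members 12 have named pseudogenes whose reads could be shared.

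The first comparison asked how far these genes depended on the endogenous fusion. In iLuc relative to iEF, 15 of 24 S-phase genes rose and 0 fell at an adjusted p below 0.05, with a median log2 fold change of 0.58 over the 24, or 1.49-fold. Of all genes tested 18.7% were called higher and 22.4% lower. Higher calls made up 27.6% of the 10779 genes with at least 5 CPM, whose median was -0.016. The S-phase genes with the largest differences were POLA1, MCM6, GINS2, RFC4 and MCM2. The class did not move as one within replicates, however. Among libraries of the same number, its median log2 difference was -0.062, 0.30 and 1.29 in sets 1, 2 and 3, and only 11 of 24 genes differed in the same direction in all 3.

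The helicase genes were among those called, 5 of 6. MCM6 (chr2:136597196-136634013, GRCh37, minus strand) lay at 107, 99.5 and 154 CPM in iLuc and at 73.8, 61.7 and 55.8 CPM in iEF. All 3 iLuc libraries lay above all iEF libraries, by 0.93 ± 0.15 on the log2 scale (± SE, adjusted p = 4.8e-05, higher in 3 of 3 sets). MCM2 lay at 174, 151 and 271 CPM against 134, 103 and 104 CPM (0.80 ± 0.17, adjusted p = 0.000636). Its groups did not overlap either, and non-overlap upward held for 8 of 24 S-phase genes, beside 19.6% of all genes tested and 24.9% of those with at least 5 CPM. MCM4, the exception among the helicase subunits, lay at 252, 216 and 609 CPM in iLuc and 345, 241 and 272 CPM in iEF, where iLuc replicates 1 and 2 were within or below the range of iEF (0.29 ± 0.23, adjusted p = 0.358).

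Genes that activate the fork followed, with 4 of 5 called. GINS2, a subunit of the GINS complex (chr16:85709804-85723679, minus strand), had 31.9, 24.6 and 50.9 CPM in iLuc and 25.1, 15.4 and 17.2 CPM in iEF. The groups overlapped narrowly, with a log2 fold change of 0.90 ± 0.22 (adjusted p = 0.00225). CDC45 rose by 0.62, GINS1 by 0.60 and MCM10 by 0.56, and GINS3 differed by 0.13 (adjusted p = 0.722). Of the polymerase, clamp and clamp loader genes 5 of 6 were called. POLA1 (chrX:24711990-25015103, plus strand) had the largest difference of all members, 128, 132 and 203 CPM against 82.4, 74.7 and 75.7 CPM (0.99 ± 0.14, adjusted p = 8.8e-06, higher in 3 of 3 sets). The clamp loader subunits RFC4 and RFC3 rose by 0.88 and 0.64, PCNA by 0.66 and POLE2, a subunit of DNA polymerase epsilon, by 0.72.

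Of the origin licensing genes among the members, 0 of 4 were called by edgeR or DESeq2 and 0 had an unadjusted p below 0.05. Whether they differed from the genes that were called was not tested. ORC2, an ORC subunit outside the member list, did rise in iLuc and is described below with the further replication genes. CDC6, which loads the helicase with ORC, lay at 53.9, 52.4 and 134 CPM in iLuc and at 101, 63.6 and 87.6 CPM in iEF. Its iLuc replicates 1 and 2 lay below every iEF library and replicate 3 above them all, and the fitted log2 fold change was -0.11 ± 0.22 (adjusted p = 0.752). ORC1, the largest ORC subunit, lay at 32.9, 29.3 and 93.2 CPM against 44.4, 29.4 and 35.2 CPM, with replicate 3 of iLuc far above all others and replicate 2 below them all (0.45 ± 0.27, adjusted p = 0.198). CDT1, the other loading factor, and ORC6 had log2 fold changes of 0.40 and 0.014. Values of the flap endonuclease FEN1, 70.7, 72.1 and 162 CPM against 124, 85.9 and 95.5 CPM, were arranged as those of CDC6 (-0.012 ± 0.22). Of the nucleotide supply genes TYMS rose by 0.62 (adjusted p = 0.013), and the ribonucleotide reductase subunits RRM1 and RRM2 differed by 0.049 and 0.24 without passing the test.

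Without iLuc replicate 3, 9 S-phase genes were called in place of 15. Of these 7 were higher in iLuc, namely MCM2, MCM6, CDC45, GINS2, RFC3, RFC4 and POLA1, at log2 fold changes from 0.40 (RFC3) to 0.73 (POLA1). The remaining 2 were lower, CDC6 by -0.64 (adjusted p = 0.000951) and FEN1 by -0.54 (adjusted p = 0.00382). A further 7 genes changed sign without being called, among them MCM4 at -0.30, ORC1 at -0.21, GINS3 at -0.40 and CDT1 at -0.11. Without iEF replicate 3, 7 were called, all higher and the same 7 genes as those higher without iLuc replicate 3. The cause of the difference between iLuc replicate 3 and the other iLuc libraries was not tested.

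**Figure D2:**
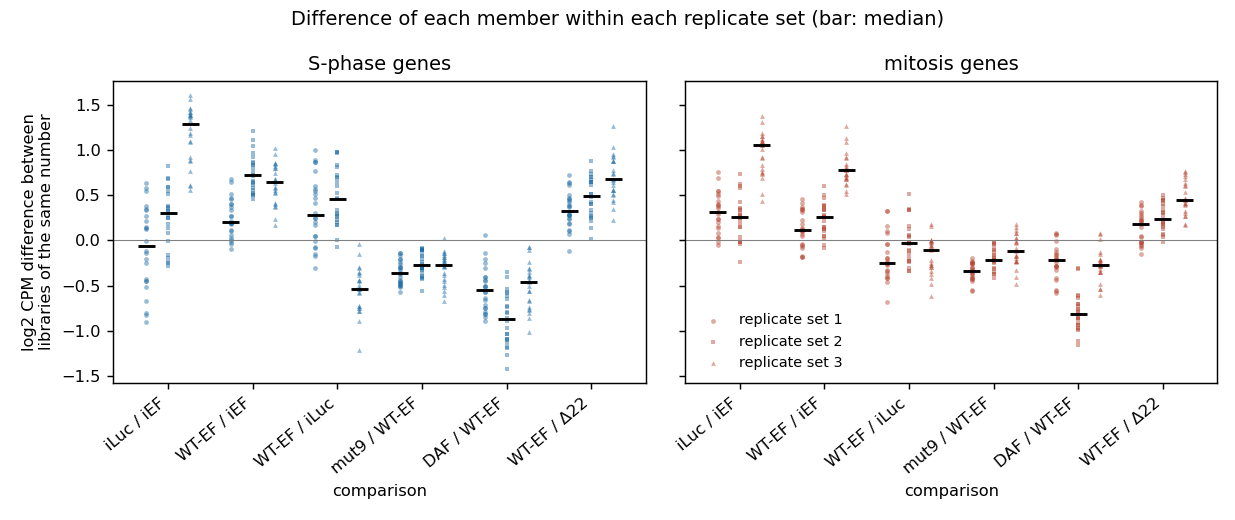
Log2 CPM differences between libraries of the same replicate number for each S-phase gene (left) and each mitosis gene (right) in 6 comparisons, with symbols for the replicate set and a bar for the median. In iLuc versus iEF the S-phase medians run from -0.062 in set 1 to 1.29 in set 3, while in mut9 versus WT-EF they lie between -0.36 and -0.27 in all 3 sets.

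Of the mitosis genes, 15 of 23 rose and 0 fell in iLuc relative to iEF, with a median log2 fold change of 0.49 and all 23 above 0. Among all genes with at least 5 CPM, 27.6% were called higher and 32.6% lower. The medians within sets were 0.32, 0.26 and 1.05, and 17 of 23 genes were higher in all 3 sets. CCNA2 (chr4:122737599-122745038, minus strand), the cyclin that acts in S phase and early mitosis, lay at 209, 153 and 194 CPM in iLuc and 129.6, 91.9 and 78.5 CPM in iEF. All iLuc libraries lay above all iEF libraries, by 0.91 ± 0.15 (adjusted p = 5.99e-05). Non-overlap upward held for 9 of 23 mitosis genes, beside 19.6% of all genes tested and 24.9% of those with at least 5 CPM. CCNB1, CCNB2 and CDK1, the mitotic cyclins and their kinase, rose by 0.46, 0.55 and 0.47, while CDC20, which activates the anaphase promoting complex, and CDC25C differed by 0.35 and 0.42 without passing the test.

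All 3 mitotic kinases and all 4 spindle checkpoint genes were called. AURKB, the kinase of the chromosomal passenger complex, lay at 66.6, 49 and 61.1 CPM in iLuc against 46.7, 38.8 and 26.7 CPM in iEF (0.65 ± 0.16, adjusted p = 0.00294), and PLK1 and AURKA rose by 0.60 and 0.38. MAD2L1, the checkpoint protein that holds CDC20, lay at 202, 166 and 184 CPM against 138, 109 and 88.6 CPM (0.73 ± 0.13, adjusted p = 9.29e-05). The checkpoint kinases TTK, BUB1 and BUB1B rose by 0.58, 0.49 and 0.51.

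At the centromere, the histone H3 variant CENPA (chr2:26987157-27023935, plus strand) lay at 57.3, 46.8 and 37.3 CPM in iLuc and 33.9, 31.2 and 17.6 CPM in iEF, again without overlap (0.79 ± 0.18, adjusted p = 0.00103). The kinetochore motor CENPE rose by 0.55, and CENPF, a large kinetochore protein, and BIRC5 (survivin) differed by 0.39 and 0.28. Of the spindle motors only KIF11 was called (0.55). KIF23, a motor of the cytokinetic midzone, lay at 304, 244 and 317 CPM against 307, 289 and 177 CPM, with overlapping groups (0.17 ± 0.15, adjusted p = 0.41). TOP2A, the topoisomerase of chromosome separation, rose by 0.57, and the spindle proteins NUSAP1 and TPX2 differed by 0.39 and 0.18.

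These mitosis calls depended on iEF replicate 3, the lowest library of its group. Without it 5 of 23 were called, CCNA2, AURKB, MAD2L1, TTK and CENPA, of which CCNA2 differed by 0.77 and CENPA by 0.57. Without iLuc replicate 3, 12 were called, all higher, which included all but 4 of the original 15 and added CDC25C.

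**Figure D3:**
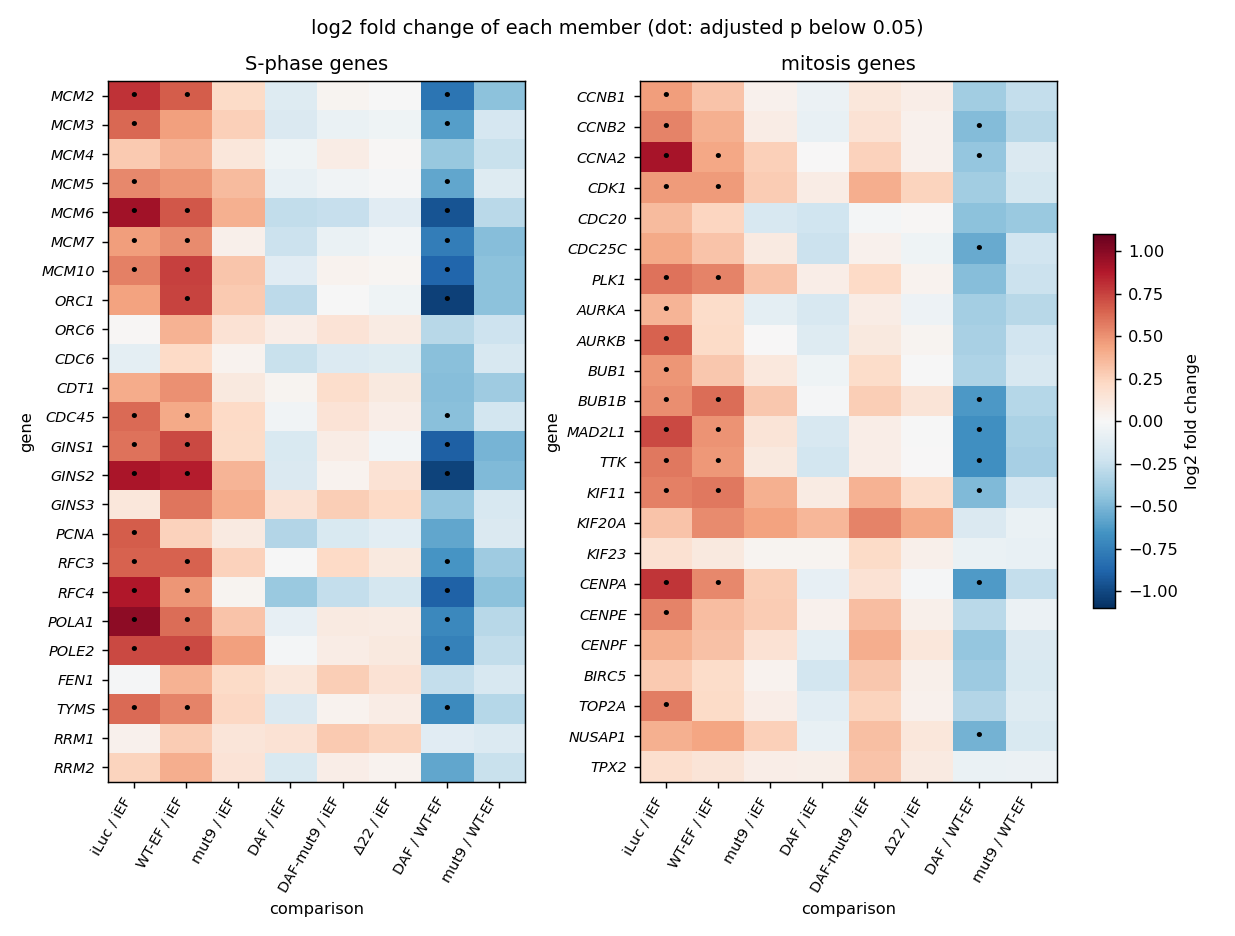
Log2 fold change of each S-phase gene (left) and mitosis gene (right) in 8 comparisons, from blue (lower in the first group) to red (higher), with a dot where the adjusted p-value was below 0.05. The columns of iLuc and WT-EF over iEF hold 30 and 21 calls, those of mut9, DAF, DAF-mut9 and Δ22 over iEF hold 0, and DAF over WT-EF holds 24 calls, all lower.

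Wildtype cDNA was compared with the empty vector in depleted cells. In WT-EF relative to iEF, 13 of 24 S-phase genes rose and 0 fell, beside 11.4% of all genes called higher (18.2% of those with at least 5 CPM) and 16.9% lower. The median log2 fold change was 0.51, all 24 lay above 0, and the groups did not overlap for 18, beside 18.3% of all genes and 25.1% of those with at least 5 CPM. The medians within sets were 0.21, 0.72 and 0.64. GINS2 lay at 33, 35.5 and 35 CPM in WT-EF against 25.1, 15.4 and 17.2 CPM in iEF (0.86 ± 0.22, adjusted p = 0.00494, higher in 3 of 3 sets). MCM10, a replication factor at the fork, lay at 139, 147 and 141 CPM against 105, 71.1 and 78.4 CPM (0.75 ± 0.21, adjusted p = 0.0115). The WT-EF libraries of both genes lay within a narrow band above every iEF library.

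ORC1, which did not pass in iLuc, was called here. It lay at 56.1, 57.7 and 68.1 CPM in WT-EF (chr1:52838501-52870095, GRCh37, minus strand), above every iEF library (0.74 ± 0.26, adjusted p = 0.0417). The other 3 licensing genes had log2 fold changes from 0.22 (CDC6) to 0.50 (CDT1) and did not pass. GINS1 (0.73), POLE2 (0.72), MCM6 (0.68), MCM2 (0.66), RFC3 (0.65), POLA1 (0.61), TYMS (0.54), MCM7 (0.52), RFC4 (0.48) and CDC45 (0.42) made up the rest of the calls. Without iEF replicate 3, 5 remained called, MCM2, MCM6, GINS2, RFC3 and POLA1, and without WT-EF replicate 2, 7 were called. Leaving out the whole of set 3, which holds the iLuc and iEF libraries that stood apart, gave 14.

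For the mitosis genes 8 of 23 rose and 0 fell with WT-EF, beside 18.2% of genes with at least 5 CPM called higher and 26.1% lower. The median log2 fold change was 0.34, with all 23 above 0. Those called were BUB1B (0.61), KIF11 (0.58), PLK1 (0.55), CENPA (0.53), MAD2L1 (0.49), TTK (0.47), CDK1 (0.47) and CCNA2 (0.43). KIF11, the motor that separates spindle poles, lay at 373, 366 and 324 CPM in WT-EF and 293, 241 and 184 CPM in iEF (0.58 ± 0.15, adjusted p = 0.0069). Groups did not overlap upward for 6 of the 23 genes, a share near that of all genes with at least 5 CPM (25.1%; 18.3% of all genes tested). The medians within sets were 0.12, 0.26 and 0.78, with the largest in set 3. Without iEF replicate 3, 0 were called. Without WT-EF replicates 1, 2 and 3 in turn the counts were 5, 3 and 5, and without iEF replicate 2 the count was 12.

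Set against cells with their own fusion, the WT-EF rescue differed little on average. In WT-EF relative to iLuc 0 of 24 S-phase genes were called by edgeR, with 3 at an unadjusted p below 0.05 and 1 called by DESeq2, beside 9.78% of all genes called higher and 8.52% lower. The median log2 fold change was 0.03, from -0.41 to 0.46. This median covered opposite differences within sets, of 0.28, 0.46 and -0.54. Without iLuc replicate 3, 12 S-phase genes were higher in WT-EF and 0 lower, whereas without iLuc replicate 1 or 2 the counts were 1 and 2, all lower. They included all 4 licensing genes, ORC1 (0.96), CDC6 (0.85), ORC6 (0.67) and CDT1 (0.63), and GINS3 (0.99), FEN1 (0.93), MCM10 (0.69), MCM4 (0.67), GINS1, RRM2, RRM1 and POLE2. Of the mitosis genes 1 of 23 was called, CCNA2, which lay at 152, 121 and 127 CPM in WT-EF, lower than in every iLuc library (-0.48 ± 0.15, adjusted p = 0.0322). This call was lost without iLuc replicate 1 or 3, or without any single WT-EF library. The median over the mitosis genes was -0.11.

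**Figure D4:**
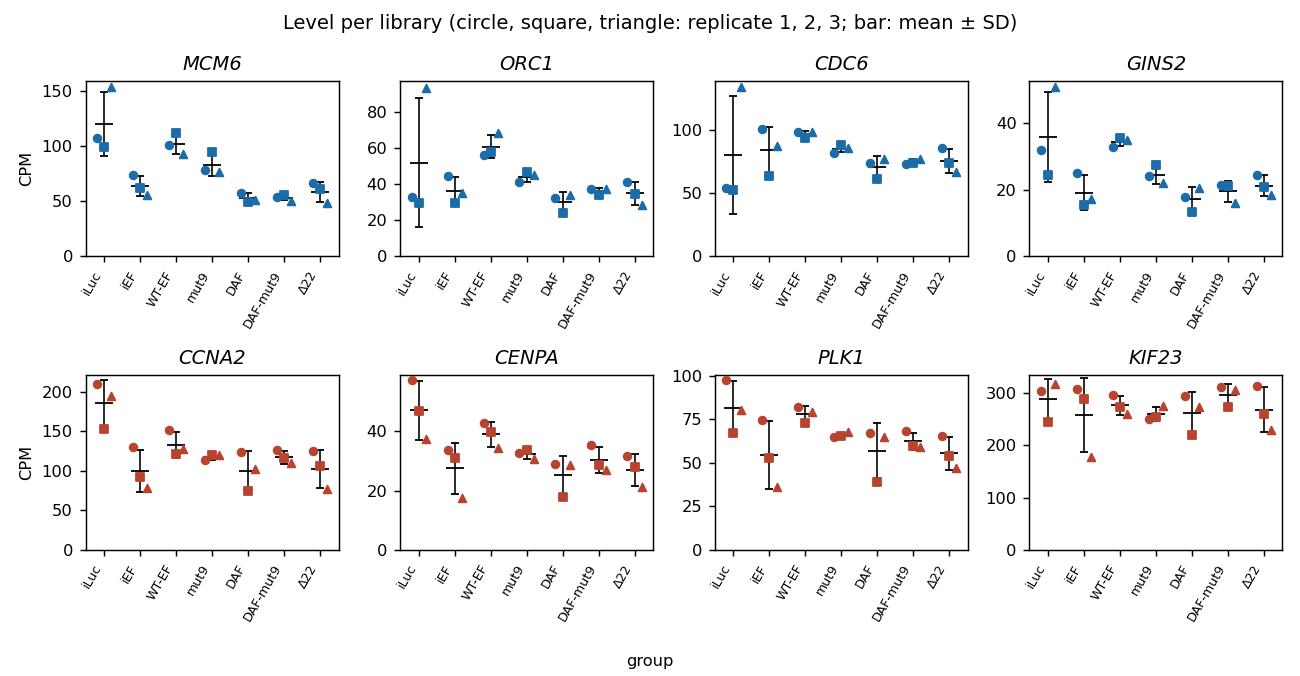
Level in CPM of 8 members in each library by group (MCM6, ORC1, CDC6 and GINS2 of the S-phase genes, CCNA2, CENPA, PLK1 and KIF23 of the mitosis genes), with symbols for replicates 1 to 3 and bars for the mean ± SD of 3 libraries. In iLuc, ORC1 (32.9, 29.3 and 93.2 CPM) and CDC6 (53.9, 52.4 and 134 CPM) show replicate 3 apart from the others, whereas the WT-EF libraries lie close together.

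The shortened mut9 fusion was compared with the empty vector and with WT-EF. In mut9 relative to iEF 0 of 47 members were called by edgeR or by DESeq2, beside 6.22% of all genes called higher and 8.33% lower, and 3 S-phase genes and 1 mitosis gene had an unadjusted p below 0.05. The median log2 fold changes were 0.22 for the S-phase genes, all 24 above 0, and 0.12 for the mitosis genes. POLE2 lay at 31.2, 30.0 and 26.5 CPM in mut9 against 24.3, 24 and 16 CPM in iEF, above all of its libraries (0.45 ± 0.20, adjusted p = 0.145). KIF20A, a motor of the central spindle, had the largest mitosis value (0.44 ± 0.21, adjusted p = 0.199) at 186, 202 and 204 CPM against 204, 164 and 83.6 CPM.

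Relative to WT-EF, all 47 members lay lower in mut9, but 0 were called by edgeR, with 8 S-phase and 4 mitosis genes at an unadjusted p below 0.05, and DESeq2 called 3 S-phase genes lower. Of all genes 1.2% were called lower and 4.95% higher. The medians were -0.28 and -0.19. The S-phase medians within sets were -0.36, -0.28 and -0.27, 23 of 24 genes were lower in all 3 sets and the groups did not overlap for 19, beside 10.3% of all genes and 16.5% of those with at least 5 CPM. GINS1 lay at 73.7, 84.1 and 67.9 CPM in mut9 and at 109.8, 113 and 100.2 CPM in WT-EF (-0.51 ± 0.19, adjusted p = 0.14). MCM7 lay at 272, 297 and 311 CPM against 369, 437 and 406 CPM (-0.46 ± 0.15, adjusted p = 0.0827). In neither gene did the groups overlap. When only the libraries of these 2 groups entered the model, so that the spread of iLuc, iEF, DAF and Δ22 was not shared, 19 S-phase and 12 mitosis genes were called lower in mut9. The share of all genes called in that fit is not given here, so these counts cannot be set against a background.

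With the tyrosine-substituted DAF no member was told apart from the empty vector. In DAF relative to iEF 0 of 47 were called by edgeR or DESeq2, beside 3.41% of all genes called higher and 4.02% lower, and 1 S-phase and 0 mitosis genes had an unadjusted p below 0.05. The median log2 fold changes were -0.13 and -0.083, and 19 of 24 and 15 of 23 genes lay below 0. RFC4 had the lowest value, at 44.7, 41.7 and 50.4 CPM in DAF against 66.8, 62.1 and 52.7 CPM in iEF, without overlap (-0.41 ± 0.14, adjusted p = 0.0958). The S-phase medians within sets changed sign, at -0.30, -0.13 and 0.18.

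Against WT-EF the DAF group was lower. Of the S-phase genes 15 of 24 fell and 0 rose, beside 10.6% of all genes called lower (17.2% of those with at least 5 CPM) and 14.3% higher, at a median log2 fold change of -0.63 with all 24 below 0. The groups did not overlap for 23 of 24, beside 19.6% of all genes and 26.8% of those with at least 5 CPM, and 23 were lower in all 3 sets, whose medians were -0.54, -0.87 and -0.46. ORC1 had the largest difference, 32.4, 23.9 and 33.8 CPM in DAF against 56.1, 57.7 and 68.1 CPM in WT-EF (-1.03 ± 0.27, adjusted p = 0.0067). GINS2 lay at 17.8, 13.2 and 20.6 CPM against 33, 35.5 and 35 CPM (-1.02 ± 0.22, adjusted p = 0.00152). MCM6 lay at 57.6, 49.1 and 51.5 CPM against 101, 112 and 93.2 CPM (-0.95 ± 0.15, adjusted p = 8.56e-05). In each of these genes every DAF library was below every WT-EF library by a wide gap. Those not called were MCM4, ORC6, CDC6, CDT1, GINS3, PCNA, FEN1, RRM1 and RRM2, of which RRM1 differed least (-0.12 ± 0.15).

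Of the mitosis genes 9 of 23 fell and 0 rose in DAF relative to WT-EF, beside 17.2% of genes with at least 5 CPM called lower and 26.4% higher. The median was -0.43, with all 23 below 0. Those called were MAD2L1 (-0.67), TTK (-0.67), BUB1B (-0.63), CENPA (-0.62), CDC25C (-0.55), NUSAP1 (-0.52), KIF11 (-0.49), CCNB2 (-0.48) and CCNA2 (-0.43). MAD2L1 lay at 115, 78.5 and 102 CPM in DAF and 172, 142 and 154 CPM in WT-EF, with no overlap (-0.67 ± 0.13, adjusted p = 0.000477). TPX2 and KIF23 differed least, at log2 fold changes of -0.069 ± 0.13 and -0.076 ± 0.15. The mitosis medians within sets were -0.22, -0.81 and -0.27, with the largest in set 2, which holds the low DAF replicate 2. Without that library 2 mitosis genes were called, MAD2L1 and TTK, together with 10 S-phase genes (MCM2, MCM6, MCM7, MCM10, ORC1, GINS1, GINS2, RFC3, RFC4 and POLA1, from -0.63 in MCM7 to -0.96 in ORC1). Without WT-EF replicate 2, 3 mitosis genes were called, without WT-EF replicate 3, 6, and without DAF replicate 3, 14.

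The 2 altered fusions were also compared with each other. In mut9 relative to DAF 1 of 24 S-phase genes was called, MCM6, at 78.7, 95 and 76.3 CPM in mut9 against 57.6, 49.1 and 51.5 CPM in DAF (0.66 ± 0.15, adjusted p = 0.0108), beside 3.13% of all genes called higher (5.06% of those with at least 5 CPM) and 3.48% lower. The median over the S-phase genes was 0.37, 23 of 24 lay above 0 and the groups did not overlap for 17, against 13.6% of all genes and 16.3% of those with at least 5 CPM. Without DAF replicate 2 or mut9 replicate 2 the call of MCM6 was lost, and without set 3 the count was 10. Of the mitosis genes 0 of 23 were called by edgeR or DESeq2 and 1 had an unadjusted p below 0.05, at a median of 0.23, and their medians within sets were -0.10, 0.64 and 0.19.

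When tyrosine changes were placed in the short form, MCM6 alone passed. In DAF-mut9 relative to mut9 it lay at 53.9, 55.5 and 50.5 CPM against 78.7, 95 and 76.3 CPM (-0.64 ± 0.15, adjusted p = 0.00807, lower in 3 of 3 sets), with no overlap, beside 4.68% of all genes called lower (6.58% of those with at least 5 CPM) and 5.15% higher. This call was lost without mut9 replicate 2. The S-phase median was -0.18, and the groups did not overlap downward for 13 of 24, beside 15.6% of all genes and 19.6% of those with at least 5 CPM. The mitosis median was 0.08, with 0 of 23 called by edgeR or DESeq2 and 0 at an unadjusted p below 0.05.

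Relative to iEF, 0 of 47 members were called in DAF-mut9 by edgeR or DESeq2, beside 1.26% of all genes called higher and 2.14% lower. No S-phase gene had an unadjusted p below 0.05 and 6 mitosis genes did, at medians of 0.059 and 0.22. KIF20A had the largest value, at 239, 209 and 197 CPM against 204, 164 and 83.6 CPM (0.54 ± 0.21, adjusted p = 0.204), where iEF replicate 3 was less abundant than the rest. The S-phase level minus the mitosis level was -0.17 ± 0.065 in DAF-mut9 (log2 scale, mean ± SD, n = 3), against 0.17 ± 0.09 in WT-EF and 0.085 ± 0.08 in mut9, and the DAF-mut9 libraries (-0.23, -0.10 and -0.19) did not overlap those of WT-EF (0.071, 0.23 and 0.22) or mut9 (0.058, 0.17 and 0.021). They did overlap those of DAF (-0.23, 0.15 and -0.0062) and Δ22 (-0.13, 0.0057 and 0.0045). The same quantity ranged from -0.45 to 0.60 within iLuc and from -0.28 to 0.39 within iEF, so that no order can be read there. No test was made of this score.

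The negative control without the EWS domain did not differ detectably from the empty vector. In Δ22 relative to iEF 0 of 47 members were called by edgeR or DESeq2 and 0 had an unadjusted p below 0.05, beside 0.881% of all genes called higher and 1.79% lower, with medians of 0.029 and 0.048. In WT-EF relative to Δ22, 11 of 24 S-phase genes rose and 0 fell, beside 10.7% of all genes called higher (17.4% of those with at least 5 CPM) and 14.5% lower, at a median of 0.50. The groups did not overlap for 22 of 24, beside 18.9% of all genes and 27.9% of those with at least 5 CPM. MCM6 had the largest difference, 101, 112 and 93.2 CPM against 66.1, 60.9 and 48.7 CPM (0.80 ± 0.15, adjusted p = 0.000447), and the other 10 were ORC1, GINS1, MCM10, GINS2, MCM2, RFC4, POLE2, MCM7, RFC3 and POLA1. Without Δ22 replicate 3 or without WT-EF replicate 2 the count was 5.

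Of the mitosis genes 4 of 23 rose in WT-EF relative to Δ22, CENPA (0.54), PLK1 (0.50), MAD2L1 (0.50) and TTK (0.47), a share no larger than that of all genes with at least 5 CPM (17.4%). CENPA lay at 42.8, 39.8 and 34.6 CPM in WT-EF and 31.8, 28.1 and 21.1 CPM in Δ22 (0.54 ± 0.17, adjusted p = 0.0257). Without Δ22 replicate 3, 0 were called, and leaving out any one of the other libraries except Δ22 replicate 2 or WT-EF replicate 1 gave 1 or 2. In DAF relative to Δ22, 0 of 47 were called by edgeR or DESeq2 and 0 had an unadjusted p below 0.05, beside 0.789% of all genes called higher and 0.183% lower. The medians were -0.13 and -0.14. RFC3, for example, lay at 96.4, 77.8 and 80.6 CPM in DAF and 91, 90.2 and 93.9 CPM in Δ22 (-0.11 ± 0.13).

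Other genes of the same processes were counted from lists of names, which were chosen with earlier results of these data known. Of 44 further replication genes 43 were tested. In iLuc relative to iEF 26 rose and 1 fell, in WT-EF relative to iEF 21 rose and 0 fell, and in DAF relative to WT-EF 0 rose and 24 fell. Of all genes with at least 5 CPM, 27.6% were called higher and 32.6% lower in iLuc, and 18.2% and 26.1% in WT-EF. In DAF relative to WT-EF the shares were 26.4% higher and 17.2% lower. PRIM1, the catalytic primase subunit, lay at 46.9, 49.4 and 51.4 CPM in iLuc and 27.5, 18.1 and 16.2 CPM in iEF, and its 3 iLuc libraries lay close together above all iEF libraries (1.28 ± 0.15, adjusted p = 6.16e-07). ORC2, another ORC subunit, rose by 0.86 from 39 ± 7.45 to 70.4 ± 3.12 CPM. The gene that fell was ASF1B, a histone chaperone, at 4.8, 6.85 and 17.3 CPM against 21.7, 13.3 and 14.4 CPM (-0.79 ± 0.31, adjusted p = 0.0485). Its groups overlapped through iLuc replicate 3 alone, without which the log2 fold change was -1.50 (adjusted p = 4.16e-05), and the call was lost without replicate 1 or 2 of either group.

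Of 53 further mitosis genes all were tested. In iLuc relative to iEF 27 rose and 2 fell, in WT-EF relative to iEF 15 rose and 1 fell, and in DAF relative to WT-EF 2 rose and 17 fell. The shares of all genes with at least 5 CPM were 27.6% higher and 32.6% lower in iLuc, and 18.2% and 26.1% in WT-EF. For DAF relative to WT-EF they were 26.4% higher and 17.2% lower. HMMR, which encodes a spindle-associated hyaluronan receptor, lay at 179.8, 187 and 116 CPM in iLuc and 82.8, 86.3 and 56.9 CPM in iEF (1.09 ± 0.16, adjusted p = 9.56e-06), and at 93.8, 84.6 and 76.5 CPM in WT-EF (log2 fold change over iEF 0.18, adjusted p = 0.438). It was lower in WT-EF than in iLuc (-0.91, adjusted p = 0.000296). CENPM, of the inner kinetochore, rose by 1.00 in iLuc and by 0.88 in WT-EF, the second not called without iEF replicate 3. The 2 that fell in iLuc were CKAP2L (-1.15 ± 0.15), a spindle protein, and ANLN (-0.66 ± 0.16), the cytokinetic scaffold anillin. CKAP2L lay at 104, 81.3 and 83.4 CPM in iLuc, 239.7, 195 and 162 CPM in iEF and 143, 109 and 109 CPM in WT-EF, where it also fell (-0.72, adjusted p = 0.000895).

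Among 20 transcriptional regulators of the cell cycle, 8 rose and 1 fell in iLuc, 6 rose and 1 fell in WT-EF, 2 rose in mut9, 1 fell in DAF and 1 fell in DAF-mut9, each relative to iEF. Of all genes with at least 5 CPM, 27.6% were called higher in iLuc, 18.2% in WT-EF and 8.9% in mut9. Called lower were 32.6% in iLuc, 26.1% in WT-EF, 5.75% in DAF and 2.75% in DAF-mut9. The 2 of 20 in mut9 and the 1 of 20 in DAF were therefore shares near the background. The 1 of 20 that fell in iLuc and in WT-EF was a smaller share than the background. E2F2, an activator of the E2F family, lay at 27, 29.5 and 70.2 CPM in iLuc, 13.6, 10.9 and 9.51 in iEF, 33.3, 41 and 39.9 in WT-EF, 21.2, 26.2 and 23 in mut9, 9.66, 6.9 and 11.8 in DAF, 9.53, 9.6 and 10.8 in DAF-mut9 and 10.3, 10.7 and 7.8 in Δ22. The iLuc, WT-EF and mut9 libraries all lay above every library of the other 4 groups. Its log2 fold change over iEF was 1.84 ± 0.26 in iLuc (adjusted p = 8.41e-06), 1.73 ± 0.26 in WT-EF (adjusted p = 3.19e-05), 1.04 ± 0.26 in mut9 (adjusted p = 0.00829) and -0.29 ± 0.26 in DAF (adjusted p = 0.629). MYBL2, which encodes B-MYB, lay at 137, 91.2 and 181 CPM in iLuc, 78.5, 51.8 and 50.4 in iEF, 136, 129 and 141 in WT-EF and 96.9, 99.6 and 104 in mut9, and rose over iEF in all 3 groups, by 1.16, 1.17 and 0.74. In DAF it lay at 75.6, 65 and 90.3 CPM (0.35, adjusted p = 0.297) and in Δ22 at 67.9, 74.6 and 63.5 CPM (0.20, adjusted p = 0.706). Both regulators passed in mut9, where 0 of the 47 members did, but without iEF replicate 3 neither was called there, and without mut9 replicate 2 E2F2 was not.

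E2F7, an E2F repressor, moved the other way. It lay at 22.6, 19 and 50.4 CPM in iLuc, 121, 46.4 and 141 in iEF, 59.4, 46.5 and 70.2 in WT-EF and 144, 129 and 135 in DAF, and fell in iLuc (-1.75 ± 0.26, adjusted p = 1.19e-05) and in WT-EF (-0.75 ± 0.25, adjusted p = 0.0291) relative to iEF. Its iEF replicate 2 stood below the other iEF libraries and level with the lowest WT-EF library. The WT-EF call was lost without iEF replicate 1 or 3 or without any single WT-EF library. In DAF relative to WT-EF E2F7 was higher by 1.25 (adjusted p = 0.000883). E2F5, a repressive E2F, rose in iLuc (0.63) and fell in DAF (-0.81, adjusted p = 0.00244) and in DAF-mut9 (-0.77, adjusted p = 0.00821), the last not called without DAF-mut9 replicate 1 or 2.

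The remaining calls over iEF among the regulators were small. E2F6 rose in iLuc (0.41) and WT-EF (0.36), as did LIN9, a subunit of the B-MYB and DREAM complexes (0.53 and 0.56), and the E2F partner TFDP2 (0.39 and 0.56). LIN52 (0.69) and the pocket protein gene RBL2 (0.61) rose in iLuc, and RBL1 (0.38) in WT-EF. The calls of E2F6, of RBL1 and of TFDP2 in iLuc were lost when single libraries were left out, among them iEF replicate 3 for RBL1 and TFDP2 and iLuc replicate 3 for E2F6 in iLuc. E2F1, the best known activator, lay at 19.8, 21.5 and 40.5 CPM in iLuc and 26.3, 15.4 and 15.2 CPM in iEF (0.52 ± 0.23, adjusted p = 0.0805) and fell in DAF relative to WT-EF (-0.78, adjusted p = 0.017), a call lost without replicate 2 of either group. FOXM1, the activator of G2 and M genes, lay at 66.9, 42.2 and 68.6 CPM in iLuc, 75.6, 39.3 and 33.5 in iEF and 51.1, 42.1 and 46.2 in WT-EF and was not called over iEF (0.28 and -0.055, adjusted p = 0.314 and 0.885). E2F3, E2F4, E2F8, TFDP1, RB1, LIN37, LIN54 and RBBP4 were not called in iLuc or WT-EF relative to iEF. Without iLuc replicate 3, however, E2F3 (-0.71, adjusted p = 0.00012) and E2F4 (-0.54, adjusted p = 0.00023) were called lower in iLuc.

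**Figure D5:**
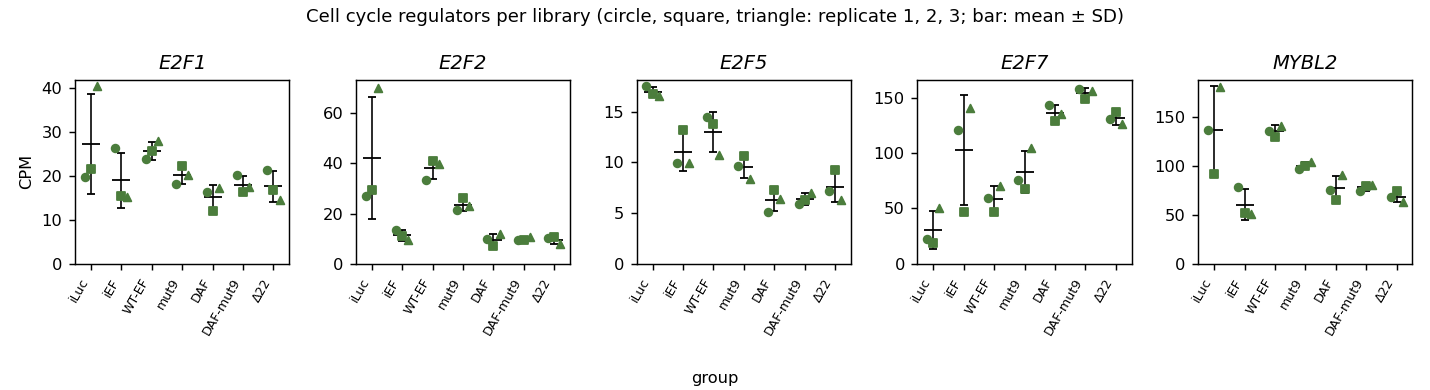
Level in CPM of 5 cell cycle regulators in each library by group, with symbols for replicates 1 to 3 and bars for the mean ± SD of 3 libraries. E2F2 and MYBL2 lie higher in iLuc, WT-EF and mut9, at 27 to 70.2 CPM of E2F2 in iLuc against 9.51 to 13.6 CPM in iEF, while E2F7 lies lower in iLuc than in the DAF, DAF-mut9 and Δ22 libraries.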

How the data were processed

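Total RNA-seq libraries of A673 cells were counted per gene by the authors. Per the labels and the study's methods, reads were aligned to hg19 with STAR (2.5.1b in the submitters' processing notes) and assigned to genes by htseq-count under its intersection-strict rule. Which annotation release and strand setting it used is not given in the sources used here. The deposited table holds raw counts for 21 libraries, with 5 summary lines that name no gene and are blank. A further deposited table holds the authors' signal after ComBat removal of the replicate number, and was used only as an alternative. A table of the authors' log2 fold changes, standard errors and adjusted p-values was not used. Columns headed mut9d were taken to be those of DAF-mut9.

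Genes with a mean of at least 1 count over all libraries were tested (30549 of 57820, 48035 with any count). Counts were scaled by TMM and fitted with edgeR (4.0.16, R 4.3.3) in a quasi-likelihood model of all 7 groups with the replicate number as a block, as the study removed that number. Adjusted p-values are Benjamini-Hochberg over all genes tested, genes with an adjusted p below 0.05 were called, and the standard error (SE) is the absolute log2 fold change over the root of F. CPM are TMM-scaled, and mean log2 levels used a prior count of 2. Members and lists were chosen with earlier results of these data known. All 47 members were described by role, led by the largest differences in iLuc versus iEF and the members called in each other comparison. Of the other lists the regulators were named, and from the others up to 2 calls in each direction with the largest difference in iLuc versus iEF. Promoters to print, and members that were not called, were picked after their values were seen. Genome places are from GENCODE v44lift37 (GRCh37). Of the listed names, UHRF1 and PECAM1 were not matched. The code was tested on simulated data. Alternatives were DESeq2 (1.42.0), other scalings and filters, the ComBat signal rounded to whole numbers, no block, only the groups compared, and each library left out. At these library totals counting error is small beside the spread between libraries for these genes, and replicate libraries differed beyond counting noise (lowest chi-square per degree of freedom 13.5).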

Additional observations from a re-analysis of the deposited data

How the results depend on the processing

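For the S-phase and mitosis genes in 13 comparisons, 3 values of single genes changed sign and passed the test with the new sign, all without iLuc replicate 3 or its set, and counts of calls moved as given here. The cause was not tested. Same-numbered libraries correlated in their deviations from the group means with a median r of 0.16 over 63 pairs (43 over 0.1, lowest -0.19, 10779 genes), against -0.095 over 126 pairs of other numbers (23 over 0.1), so the numbers did not pair all libraries. Without the replicate block the mitosis counts were 3 in WT-EF versus iEF (8 with it), 0 in WT-EF versus iLuc (1), 5 in DAF versus WT-EF (9) and 1 in WT-EF versus Δ22 (4), and all other counts stayed within 1.5 times, for example 15 S-phase genes in iLuc versus iEF.

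Shares of all genes called are given for the filtered edgeR fit of all 21 libraries with the block alone. Counts under the alternatives therefore have no background beside them and do not show whether calls rose among all genes too. With no filter on low counts more members were called. The S-phase counts became 21 in WT-EF versus iEF, 2 in mut9 versus iEF, 1 in DAF versus iEF, 6 in WT-EF versus iLuc (3 in each direction), 8 in mut9 versus WT-EF, 10 in mut9 versus DAF, 2 in DAF-mut9 versus mut9 and 21 in WT-EF versus Δ22. The mitosis counts became 14 in WT-EF versus iEF, 2 in mut9 versus iEF, 3 in DAF-mut9 versus iEF, 1 in Δ22 versus iEF, 3 in WT-EF versus iLuc, 3 in mut9 versus WT-EF, 20 in DAF versus WT-EF and 10 in WT-EF versus Δ22. When only the libraries of the groups compared were fitted, the S-phase counts were 7 in iLuc versus iEF, 20 in WT-EF versus iEF, 19 in mut9 versus WT-EF, 6 in DAF-mut9 versus mut9 and 22 in WT-EF versus Δ22, and the mitosis counts 3 in WT-EF versus iLuc, 12 in mut9 versus WT-EF, 20 in DAF versus WT-EF, 2 in DAF-mut9 versus mut9 and 12 in WT-EF versus Δ22. Upper quartile scaling gave 3 S-phase genes in mut9 versus WT-EF, and 14 mitosis genes in WT-EF versus iEF, 17 in DAF versus WT-EF and 7 in WT-EF versus Δ22. DESeq2 gave 1 S-phase gene in WT-EF versus iLuc and 3 in mut9 versus WT-EF. The filterByExpr filter gave 2 S-phase and 2 mitosis genes in WT-EF versus iLuc and 1 S-phase gene in mut9 versus WT-EF. The ComBat signal gave S-phase counts of 1 in DAF versus iEF, 2 in WT-EF versus iLuc, 3 in mut9 versus WT-EF and 3 in mut9 versus DAF, and 2 mitosis genes in WT-EF versus iLuc.

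Leaving out single libraries, or whole sets of a number (chosen after the data were seen), gave S-phase counts from 7 to 17 in iLuc versus iEF, from 5 to 18 in WT-EF versus iEF, from 0 to 1 in DAF versus iEF, from 0 to 12 in WT-EF versus iLuc, from 0 to 3 in mut9 versus WT-EF, from 7 to 18 in DAF versus WT-EF, from 0 to 10 in mut9 versus DAF, from 0 to 1 in DAF-mut9 versus mut9 and from 5 to 12 in WT-EF versus Δ22. The mitosis counts ran from 5 to 16 in iLuc versus iEF, from 0 to 12 in WT-EF versus iEF, from 0 to 1 in DAF versus iEF, from 0 to 1 in WT-EF versus iLuc, from 2 to 15 in DAF versus WT-EF, from 0 to 1 in mut9 versus DAF and from 0 to 3 in WT-EF versus Δ22. Values that passed in neither fit also changed sign, as for MCM4 (-0.30), RRM1 (-0.21) and RRM2 (-0.17) in iLuc versus iEF without iLuc replicate 3, and KIF23 (-0.073) and TPX2 without iEF replicate 3. ORC6 log2 fold change, iLuc versus iEF, was -0.34 without replicate 3 and ran from there to 0.25 over all omissions. POLE2 log2 fold change, WT-EF versus iLuc, was 0.43 without iLuc replicate 3 and 0.47 without replicate 3, and ran from -0.21 to that value. Scaling by library totals in place of TMM moved 58 of 329 group levels by 1 SD or more and changed the highest group for 7 of 47 members. Each member had at least 333 counts in every library.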
